A study of Mus musculus with 4 samples.

Results

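The subject is a set of tissue spots in mouse liver sections from MASH livers that carry RNA of lipid-associated macrophages, called foci below. They were defined by 3 genes that mark these cells: Gpnmb, Trem2 and Mmp12. A focus was a spot with at least 5000 UMIs (unique molecular identifiers, each counting 1 captured RNA molecule) of which at least 3 came from Gpnmb, Trem2 and Mmp12 together, and the other spots were those in which the sum was 0. By this rule 763 spots were foci and 1910 were other spots, out of 8252 spots in all 4 sections of the series. The members were thus chosen on measured values, and the levels of Gpnmb, Trem2 and Mmp12 below are a description without a test.

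The study profiled fresh-frozen livers by 10x Visium, in which RNA is captured on a slide in barcoded spots, each a small region that can hold several cells. The MASH group held 2 sections, MASH-1 and MASH-2, from mice fed a diet labelled WD for 16 weeks, and the MAFL group held 2 sections, MAFL-1 and MAFL-2, from mice fed WD for 8 weeks. All 4 sections share the diet. Strain, sex and age were not given in the labels, nor whether 1 or 2 mice gave the sections of a group. Spots can differ in how many cells of a type they hold and in the RNA of each cell, and these cannot be told apart here.

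Lipid-associated macrophages take up lipid and cell debris in fatty tissue. TREM2 is a receptor on their surface that binds lipids and lipoproteins. GPNMB is a glycoprotein of the lysosome and melanosome membranes, and MMP12, macrophage elastase, cleaves elastin and other matrix proteins. In the liver lobule, blood runs past hepatocytes on its way out of the portal tract and into the central vein, and hepatocytes along this path divide their tasks: Cyp2f2 is a cytochrome P450 of periportal hepatocytes and Cyp2e1 one of pericentral hepatocytes. Each section was therefore cut into 3 zones of equal spot number by the log2 ratio of Cyp2f2 to Cyp2e1 UMIs, each plus 1, called pericentral, middle and periportal, and foci were set against other spots of the same zone and section.

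The promoters of the 3 defining genes, and of the 3 lysosomal genes with the smallest p-values among those compared below, are shown because these genes were high in the same spots. They are RefSeq sequences on GRCm38.p6, each running 250 bases before to 50 bases after an annotated transcription start. Capitals mark matches on either strand to an E-box (CACGTG), an AP-1 site (TGANTCA) or a purine core (GAGGAA), of which none overlapped here.
Gpnmb (chr6:49036268-49036567, plus strand): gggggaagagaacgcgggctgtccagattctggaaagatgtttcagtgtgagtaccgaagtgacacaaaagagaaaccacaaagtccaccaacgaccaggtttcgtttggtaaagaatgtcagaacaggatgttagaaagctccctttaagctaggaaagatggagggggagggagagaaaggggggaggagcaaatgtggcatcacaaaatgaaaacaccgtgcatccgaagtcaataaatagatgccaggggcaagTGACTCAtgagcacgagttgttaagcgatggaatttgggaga
Trem2 (chr17:48346151-48346450, plus strand): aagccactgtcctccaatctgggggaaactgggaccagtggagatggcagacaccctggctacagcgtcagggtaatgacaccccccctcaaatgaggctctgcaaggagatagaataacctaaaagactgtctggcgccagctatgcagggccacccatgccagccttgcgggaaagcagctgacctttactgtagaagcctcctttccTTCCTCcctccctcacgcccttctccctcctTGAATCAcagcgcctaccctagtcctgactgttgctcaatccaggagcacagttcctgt
Mmp12 (chr9:7344147-7344446, plus strand): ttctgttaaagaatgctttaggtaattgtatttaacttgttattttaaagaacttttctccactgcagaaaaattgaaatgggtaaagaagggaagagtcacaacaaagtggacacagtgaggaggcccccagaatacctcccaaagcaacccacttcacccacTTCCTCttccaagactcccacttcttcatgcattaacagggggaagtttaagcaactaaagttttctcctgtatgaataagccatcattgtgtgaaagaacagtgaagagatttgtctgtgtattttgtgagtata
Mmp12 (chr9:7347124-7347423, plus strand): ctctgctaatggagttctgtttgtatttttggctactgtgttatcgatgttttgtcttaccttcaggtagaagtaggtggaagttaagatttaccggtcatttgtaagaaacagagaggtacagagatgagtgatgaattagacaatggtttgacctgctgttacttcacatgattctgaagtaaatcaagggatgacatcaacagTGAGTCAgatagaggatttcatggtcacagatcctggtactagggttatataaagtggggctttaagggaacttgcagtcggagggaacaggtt
Ctss (chr3:95526536-95526835, plus strand): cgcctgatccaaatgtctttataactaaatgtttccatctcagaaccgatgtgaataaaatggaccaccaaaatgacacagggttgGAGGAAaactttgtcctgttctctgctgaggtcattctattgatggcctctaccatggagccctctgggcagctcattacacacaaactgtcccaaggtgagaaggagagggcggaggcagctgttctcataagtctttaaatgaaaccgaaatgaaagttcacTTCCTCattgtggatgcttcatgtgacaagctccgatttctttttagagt
Ctsd (chr7:142387778-142388077, minus strand): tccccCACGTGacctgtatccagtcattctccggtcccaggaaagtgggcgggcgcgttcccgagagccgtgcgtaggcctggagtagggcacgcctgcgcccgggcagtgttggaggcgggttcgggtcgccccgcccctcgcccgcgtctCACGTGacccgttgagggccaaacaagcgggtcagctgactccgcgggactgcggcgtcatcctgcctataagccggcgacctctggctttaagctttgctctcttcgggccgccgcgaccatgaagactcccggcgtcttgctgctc
Psap (chr10:60277378-60277677, plus strand): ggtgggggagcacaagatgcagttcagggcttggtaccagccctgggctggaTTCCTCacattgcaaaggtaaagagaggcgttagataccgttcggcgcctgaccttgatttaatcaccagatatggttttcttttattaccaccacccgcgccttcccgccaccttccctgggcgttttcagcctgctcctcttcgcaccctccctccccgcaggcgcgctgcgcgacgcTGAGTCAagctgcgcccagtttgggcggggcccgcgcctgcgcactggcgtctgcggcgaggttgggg
A match is a description of the letters and not evidence of binding. The AP-1 letters occur in the promoters of Gpnmb, Trem2 and Psap and at 1 of the 2 starts of Mmp12, against 7.81% of all 32851 mouse promoters in the RefSeq table. The E-box occurs at 2 places in the promoter of Ctsd and in 7.15% of all promoters. The purine core, found in Trem2, Ctss, Psap and at 1 start of Mmp12, occurs in 28.3% of all promoters. The second annotated start of Psap held none of the 3 motifs and is not shown.

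Both MASH sections held many foci, but not equally many. In MASH-1, 236 of 2424 spots were foci (9.74%, exact 95% binomial interval 8.58 to 10.99%), and in MASH-2, 527 of 1846 spots were (28.5%, 26.5 to 30.7%). The MAFL sections held 1 focus in 2001 spots and 2 foci in 1859 spots. Intervals cover counting error only. The section totals were 63808952 UMIs in MASH-1 and 44581221 UMIs in MASH-2. Of the MASH sections, the one with fewer UMIs thus held the larger share of foci. The MAFL totals were lower than both, 32250136 UMIs in MAFL-1 and 38126800 UMIs in MAFL-2. The counts of foci in MAFL and MASH were thus not taken at equal depth.

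Foci were graded and rarely rested on 1 gene. Gpnmb counted 806 UMIs in MASH-1 and 1887 in MASH-2, Trem2 653 and 900, and Mmp12 1012 and 2265. Mmp12 gave 46.0% of the defining UMIs of the foci in both sections. All 3 genes were present in 36.4% of foci in MASH-1 and 42.9% of foci in MASH-2. Of all Mmp12 UMIs, 64.1% lay in the foci of MASH-1 and 82.1% in those of MASH-2. For Trem2 these shares were 41.3% and 71.7%. Sums reached 43 in a spot of MASH-1 and 91 in a spot of MASH-2. Just inside the threshold, 99 and 163 spots had a sum of 3, and just outside it, 211 and 264 spots had a sum of 2.

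Foci were most frequent in the periportal zone of both sections. The pericentral, middle and periportal zones of MASH-1 held 30, 46 and 160 foci, which were 3.71%, 5.69% and 19.8% of the spots of each zone. In MASH-2 they held 118, 147 and 262 foci, or 19.2%, 23.9% and 42.6% of the spots. The periportal zone thus held 67.8% of the foci of MASH-1 and 49.7% of those of MASH-2 (58.8 ± 12.8%, SD, n = 2 sections), and with 2 sections no test over sections was run. Periportal spots were also deeper: the median focus held 35924.5 UMIs in the periportal and 28345 in the pericentral zone of MASH-1, and 37654 and 19955 in MASH-2. With every spot thinned to 5000 UMIs and a sum of at least 2 taken as a focus, the periportal zone held 35 of 56 foci in MASH-1 (62.5%) and 90 of 197 in MASH-2 (45.7%).

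**Figure D1:**
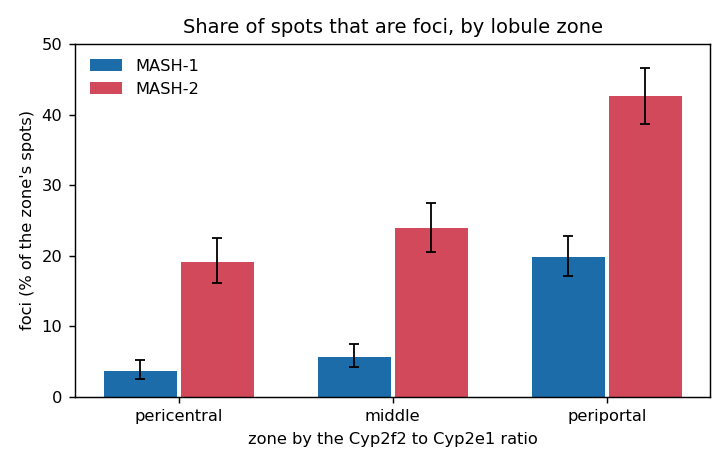
Share of the spots of each lobule zone that were foci, in percent, for MASH-1 and MASH-2; bars are shares and error bars exact 95% binomial intervals. In both sections the periportal zone had the highest share, 19.8% in MASH-1 and 42.6% in MASH-2, with intervals that do not overlap those of the other zones. The intervals cover counting error within a section only and are no test of the zones. Periportal spots were also deeper.

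Foci held more RNA than other spots. The median was 32498 UMIs in foci and 23484.5 UMIs in other spots of MASH-1, and 28364 UMIs in foci and 16018 UMIs in other spots of MASH-2. The rule itself favours deep spots, because a sum of 3 is reached more easily where more molecules are counted. Mitochondrial RNA made up 3.06% of the UMIs of foci and 4.04% of those of other spots in MASH-1, and 4.26% and 5.51% in MASH-2. Within zones, the median zone ratio of foci minus that of other spots lay between -0.06 and 0.36 on the log2 scale, largest in the periportal zone of MASH-2. Levels below are therefore in CPM, UMIs per 1000000 UMIs of a class after TMM scaling, averaged over the 3 zones of a section. Where library totals are named as the scale, TMM was not applied.

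UMIs were summed per class, zone and section into 12 sums and fitted over all genes with edgeR, each section-zone being a block. Of 10008 genes tested, 1027 passed an adjusted p of 0.05, which is 10.3%: 534 were higher in foci (5.34%) and 493 lower (4.93%). The zones of 1 section are not separate samples, so these p-values measure the spread over 6 section-zones and are too small for a statement about animals. The SEs printed below come from edgeR fits over the same section-zones and share this limit. Limma on the means of the 2 sections is given beside edgeR: it called 243 genes (2.43%), 187 higher (1.87%) and 56 lower (0.56%), of which 229 were also called by edgeR. It had 1 mean per class and section, so its p-values lean on variance pooled across genes. They are no measure of the spread over animals either, since 1 mouse may have given both sections. Over all 10008 tested genes, called or not, the log2 ratios of the 2 sections had a Pearson r of 0.287, which is a description across genes, and 11.4% of genes had the same sign in all 6 section-zones. Scaled by library totals alone, the calls split into 804 higher and 179 lower, so the number of lower genes depends on the scaling, and the median over all genes moved to 0.05 on the log2 scale, against -0.01 with TMM.

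**Figure D2:**
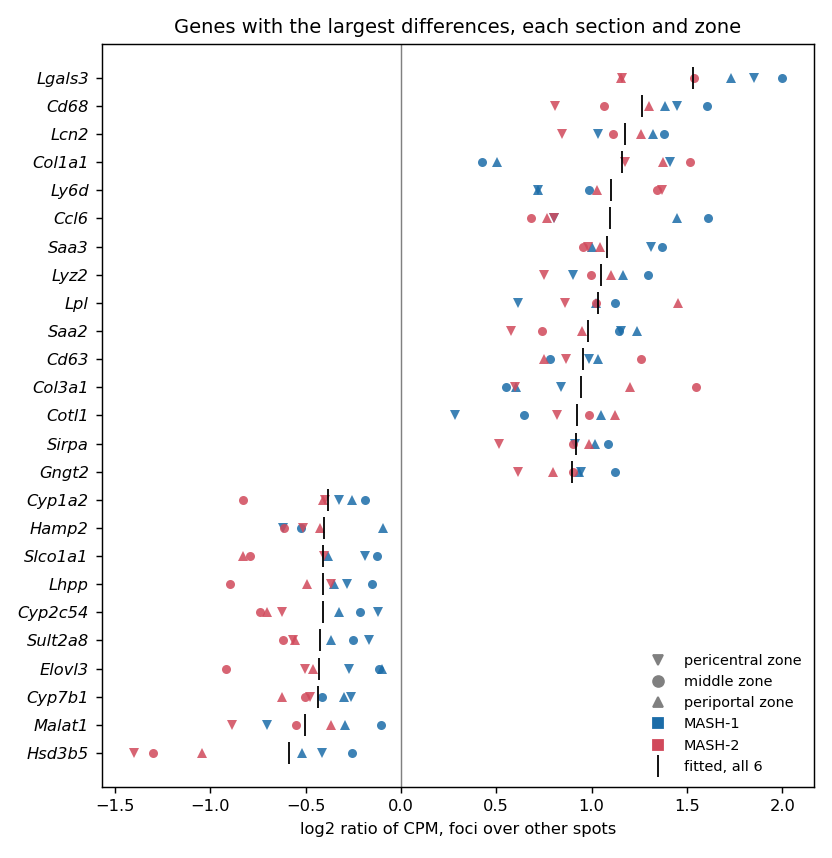
Log2 ratio of CPM, foci over other spots, for the 15 genes with the largest and the 10 with the lowest fitted differences among called genes of at least 20 CPM; each point is 1 zone of 1 section and the black bar is the edgeR fit. Lgals3 lies highest with a fitted 1.53, Hsd3b5 lowest with -0.59, and all 6 points of each gene lie on the same side of 0, as the rule for naming them required.

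The gene with the largest difference by that rule was Lgals3, which encodes galectin-3, a sugar-binding protein that macrophages make in quantity. It had 81.1 CPM in foci of MASH-1 and 114 CPM in foci of MASH-2, against 22.0 CPM and 46.1 CPM in other spots. Both foci values lay above both values of the other spots, and the log2 difference was 1.53 ± 0.11 (SE), a 2.89-fold difference, with an edgeR adjusted p of 1.77e-06 and a limma section-level adjusted p of 6.63e-05. Single spots overlapped: 22.5% of foci and 64.1% of other spots in MASH-1 held no Lgals3 UMI, and 18.0% and 47.7% in MASH-2. Foci of MASH-1 held 31.4% of its Lgals3 UMIs, against 11.96% of its UMIs of all genes, in 9.74% of its spots. Foci of MASH-2 held 56.2% of its Lgals3 UMIs, against 36.52% of its UMIs of all genes, in 28.5% of its spots.

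Other genes of the lipid-associated macrophage programme were higher in foci as well. Of 14 that were tested beside the defining genes, 13 were higher, none was lower, and the median log2 difference was 0.86, where all tested genes had a median of -0.01. The list is known to go with Trem2 and Gpnmb, so it is no independent evidence of what the foci are. By limma on section means 11 of the 14 were called. Lilrb4a and Syngr1 did not pass the filter on low counts, and Clec7a was not analysed here.

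Cd68, a lysosome-associated glycoprotein of macrophages, had 44.1 CPM and 47.7 CPM in foci, against 15.6 CPM and 23.0 CPM in other spots, a log2 difference of 1.26 ± 0.09 (SE; edgeR adjusted p = 1.61e-18, limma section-level adjusted p = 0.000135). Its mean levels in foci were nearly equal in the 2 sections and lay above both means of the other spots. Single spots overlapped: 31.8% of foci and 71.3% of other spots in MASH-1 held no Cd68 UMI, and 37.2% and 66.0% in MASH-2. Itgax, the integrin subunit CD11c, had 8.00 CPM and 15.6 CPM in foci and 2.37 CPM and 4.48 CPM in other spots (log2 difference 1.79 ± 0.17). With every spot thinned to 5000 UMIs, Itgax was seen in 5.93% of foci and 1.19% of other spots in MASH-1, and in 8.16% and 2.46% in MASH-2. Cd63, a tetraspanin of late endosomes, had 49.0 CPM and 112 CPM in foci, against 25.2 CPM and 58.2 CPM in other spots, so the 2 classes differed within each section while the section ranges overlapped. Cd9, another tetraspanin, had 34.7 CPM and 45.3 CPM in foci and 22.9 CPM and 27.8 CPM in other spots.

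Genes of lipid uptake differed in size. Lpl, lipoprotein lipase, which releases fatty acids at the cell surface, had 79.6 CPM and 77.1 CPM in foci, against 41.9 CPM and 36.6 CPM in other spots (log2 difference 1.03 ± 0.07, edgeR adjusted p = 2.47e-18, limma section-level adjusted p = 5.34e-05). Fabp5, a fatty acid carrier, had 42.1 CPM and 40.2 CPM in foci, against 24.4 CPM and 22.2 CPM in other spots. Both genes thus lay well above the other spots and were level between the sections. Fabp4, another carrier, differed by only 0.28 ± 0.08 on the log2 scale, and Plin2, which coats lipid droplets in hepatocytes and macrophages alike, by 0.12 ± 0.03. Neither of these 2 was called by limma on section means.

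Spp1, osteopontin, a secreted glycoprotein made by lipid-associated macrophages and by bile duct cells, did not pass. It had 81.6 CPM in foci of MASH-1 and 303 CPM in foci of MASH-2, against 75.04 CPM and 191 CPM in other spots, with a log2 difference of 0.48 ± 0.15 (edgeR adjusted p = 0.142, limma section-level adjusted p = 0.0835). The 2 sections differed more than the 2 classes did. Without the spots that held a UMI of Krt7, Krt19, Epcam or Sox9, markers of bile duct cells, the log2 difference was 0.39 with an edgeR adjusted p of 4.54e-07, and with zones summed it was 0.88. Spp1 also passed with 5 zone classes (0.46, edgeR adjusted p = 0.0365) and on thinned spots with a sum of at least 2 as a focus (0.61, edgeR adjusted p = 1.78e-07). Without MASH-2 its log2 difference was 0.12, and without MASH-1 it was 0.67.

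Of 17 tested genes of monocytes and macrophages at large, 15 were higher in foci and none lower, with a median log2 difference of 0.57. Limma on section means called 10 of the 17. Lyz2, lysozyme, had 411 CPM and 319 CPM in foci, against 187 CPM and 164 CPM in other spots (log2 difference 1.05 ± 0.05, edgeR adjusted p = 1.32e-13, limma section-level adjusted p = 1.26e-05). The complement genes C1qa, C1qb and C1qc, which macrophages express together, differed by 0.50, 0.55 and 0.63. Ms4a7, a membrane protein of tissue macrophages, had 7.17 CPM and 14.7 CPM in foci and 3.46 CPM and 6.14 CPM in other spots. Ccr2, the receptor that draws monocytes into tissue, did not pass, with 1.88 CPM and 7.74 CPM in foci and 1.56 CPM and 5.39 CPM in other spots. The receptor Csf1r did not pass edgeR's test either (adjusted p = 0.11) but was called by limma on section means (adjusted p = 0.0358).

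Resident Kupffer cells, the macrophages that line the sinusoids of the healthy liver, are marked by another set. Of its 13 genes, all tested, Cd5l and Hmox1 were higher in foci and 11 did not pass, with a median log2 difference of 0.21, and limma on section means called 1. The most specific of them, Clec4f, a lectin, had 182 CPM in foci of MASH-1 and 149 CPM in foci of MASH-2, against 136 CPM and 150 CPM in other spots. Clec4f was thus above the other spots in MASH-1 alone. Timd4, a receptor for dying cells on long-lived Kupffer cells, had 16.6 CPM and 6.68 CPM in foci, against 10.4 CPM and 9.66 CPM in other spots, and so ran in opposite directions in the 2 sections. Marco, a scavenger receptor, did the same with 78.0 CPM and 16.5 CPM in foci, against 54.2 CPM and 23.8 CPM in other spots. Cd5l, a secreted protein of tissue macrophages, had 359 CPM and 268 CPM in foci, against 190 CPM and 189 CPM in other spots (log2 difference 0.71 ± 0.09, edgeR adjusted p = 0.00551).

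**Figure D3:**
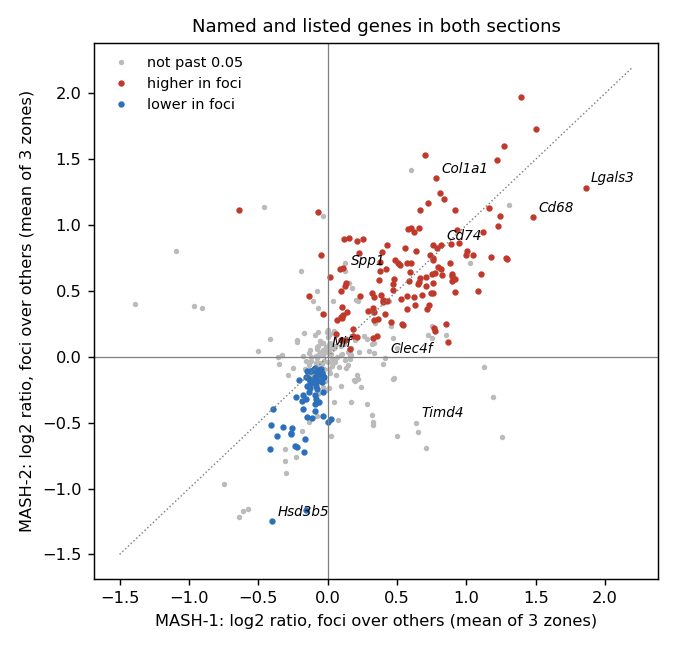
Log2 ratio of CPM, foci over other spots, averaged over 3 zones, in MASH-1 (x axis) and MASH-2 (y axis), for the named genes and the members of the gene lists; red and blue are genes called higher and lower in foci by edgeR, grey did not pass, and the dotted line marks equal ratios. Lgals3 and Cd68 lie far up in both sections, Mif sits near 0, and Timd4 lies above 0 in MASH-1 and below 0 in MASH-2.

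MHC class II genes, which present peptides to T helper cells, were higher wherever they could be tested. H2-DMb2, H2-Oa, H2-Ob and Ciita did not pass the filter on low counts. Each of the 6 tested genes was called, also by limma on section means, with a median log2 difference of 0.75. Cd74 encodes the chaperone (invariant chain) of these molecules, which also binds the cytokine MIF at the cell surface. It had 386 CPM and 552 CPM in foci, against 217 CPM and 307 CPM in other spots (log2 difference 0.85 ± 0.04, edgeR adjusted p = 3.23e-17, limma section-level adjusted p = 1.26e-05). H2-Aa had 155 CPM and 252 CPM in foci, against 90.9 CPM and 151 CPM in other spots. H2-Ab1 had 244 CPM and 301 CPM in foci, against 140 CPM and 187 CPM in other spots. In each section the foci lay above the other spots, by nearly the same ratio in both.

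The ligand of this receptor did not pass the test. Mif had 266 CPM in foci of MASH-1 and 269 CPM in foci of MASH-2, against 268 CPM and 262 CPM in other spots, and its log2 difference was 0.02 ± 0.04 (edgeR adjusted p = 0.856). Ddt, the homologue of Mif, was lower in foci by edgeR, with 681 CPM and 563 CPM in foci and 740 CPM and 646 CPM in other spots, but not by limma (adjusted p = 0.11). Cd44, the co-receptor of CD74, had 16.9 CPM and 26.0 CPM in foci, against 11.9 CPM and 15.3 CPM in other spots (log2 difference 0.70 ± 0.11, edgeR adjusted p = 1.72e-06, limma section-level adjusted p = 0.0452). Cxcr4, a chemokine receptor that also binds MIF, was too low to test. With spots thinned to 5000 UMIs it was seen in 0.424% of foci and 0.597% of other spots in MASH-1, and in 3.04% and 1.58% in MASH-2.

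Lysosomal enzymes digest what macrophages engulf. The list also held lysosomal proteins that are not enzymes, among them Lamp1, Lamp2, Npc1, Npc2 and Psap. Some members, such as Npc1 and Npc2, are counted again under cholesterol handling. Of 24 genes tested, 13 were higher in foci, none was lower, and 11 did not pass, with a median log2 difference of 0.18. By limma on section means 8 were called. Ctss, cathepsin S, which trims the invariant chain, had 118 CPM and 170 CPM in foci, against 63.2 CPM and 93.4 CPM in other spots, and its log2 difference of 0.89 ± 0.05 was the largest of the list. Lgmn, the asparagine endopeptidase legumain, had 236 CPM and 215 CPM in foci, against 124 CPM and 142 CPM in other spots. Ctsd, cathepsin D, had 856 CPM and 922 CPM in foci, against 636 CPM and 688 CPM in other spots, and Psap, the precursor of the saposins, differed by 0.41 ± 0.03 on the log2 scale. Among the members that did not pass, Ctsl, Lamp1 and Lamp2 differed by 0.07, 0.05 and -0.08.

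Few genes of the vacuolar proton pump, which acidifies the lysosome, passed. Of 16 subunits, Atp6v0d2, Atp6v1b2 and Atp6v0c were higher and 13 did not pass. With library totals as the scale 8 of the 16 were called higher, and by limma on section means 1 was. Atp6v0d2, the subunit form found in osteoclasts and some macrophages, had 6.49 CPM and 8.02 CPM in foci, against 2.202 CPM and 2.02 CPM in other spots (log2 difference 1.67 ± 0.23, edgeR adjusted p = 1.09e-07, limma section-level adjusted p = 0.00487). The widely expressed form of the same subunit, Atp6v0d1, had 82.9 CPM and 89.6 CPM in foci, against 74.0 CPM and 88.6 CPM in other spots. Atp6v0d1 did not pass, and the difference between the 2 forms was not tested.

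Of 11 tested genes of cholesterol handling, 3 were higher and 1 was lower, and limma on section means called 2, both higher. Abcg1, which exports cholesterol, had 13.7 CPM and 19.3 CPM in foci, against 8.47 CPM and 12.4 CPM in other spots. Soat1, which esterifies cholesterol for storage, had 7.74 CPM and 10.2 CPM in foci, against 4.72 CPM and 5.47 CPM in other spots. Npc2, which lifts cholesterol out of the lysosome, differed by 0.36 ± 0.04, while its membrane partner Npc1 differed by -0.01 ± 0.05. Apoe, made in bulk by hepatocytes, was lower by 0.08 on the log2 scale under edgeR and was not called by limma.

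Receptors for debris and complement were a further group. Of 13 tested scavenger and phagocytic receptors, 10 were higher and none lower (median log2 difference 0.65), and limma on section means called 5. C3ar1, the receptor of complement fragment C3a, had 16.2 CPM and 14.3 CPM in foci, against 6.23 CPM and 8.49 CPM in other spots. Itgb2, the shared chain of the leukocyte integrins, had 23.3 CPM and 26.7 CPM in foci, against 11.5 CPM and 14.5 CPM in other spots. Axl, a receptor tyrosine kinase for dying cells, had 42.4 CPM and 42.0 CPM in foci, against 24.99 CPM and 30.3 CPM in other spots. Its relative Mertk was low, with 4.09 CPM and 8.70 CPM in foci and 2.89 CPM and 7.69 CPM in other spots, and did not pass. Sirpa, the receptor for the signal that spares cells from engulfment, had 42.0 CPM and 48.2 CPM in foci and 20.8 CPM and 27.5 CPM in other spots.

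Among 11 tested transcription factors of macrophages and of the MiT family, which drives lysosomal genes, 3 were higher and 1 was lower. Spi1, the macrophage master regulator PU.1, had 18.7 CPM and 20.8 CPM in foci, against 10.4 CPM and 11.8 CPM in other spots (log2 difference 0.83 ± 0.12). Irf8 and Irf5 were higher by 0.76 and 0.59. The MiT members Tfe3, Tfeb and Tfec, at 2.21 to 10.4 CPM in foci and 2.42 to 9.91 CPM in other spots, differed by 0.14, -0.05 and -0.07 and did not pass, and Mitf was too low to test. Cebpb, which hepatocytes also express, was lower by 0.13 under edgeR and not under limma.

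Matrix genes were nearly all higher in foci. Of 21 tested, 20 were higher, Fn1 did not pass, and the median log2 difference was 0.70. Limma on section means called 10 of the 21, and without the spots holding bile duct UMIs edgeR called 12 of 18. Col1a1, the main chain of fibrillar collagen, had 17.5 CPM in foci of MASH-1 and 54.3 CPM in foci of MASH-2, against 9.57 CPM and 21.0 CPM in other spots (log2 difference 1.16 ± 0.11, edgeR adjusted p = 1.09e-10, limma section-level adjusted p = 0.0016). The MASH-1 foci thus lay below the other spots of MASH-2, while in each section foci were above their own other spots. Without MASH-2 the log2 difference of Col1a1 was 0.72. Col3a1 had 48.1 CPM and 102 CPM in foci, against 30.2 CPM and 45.8 CPM in other spots. Eln, elastin, the substrate of MMP12, had 3.45 CPM and 7.22 CPM in foci, against 1.999 CPM and 2.52 CPM in other spots, and was not called by limma (adjusted p = 0.0871). Fn1, fibronectin, a plasma protein of hepatocytes as well as a matrix protein, had 818 CPM and 697 CPM in foci and 848 CPM and 724 CPM in other spots.

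Among 7 tested proteases and their inhibitors, Timp1, Timp2 and Mmp2 were higher. Timp1, an inhibitor of metalloproteinases, had 6.79 CPM and 16.0 CPM in foci, against 2.65 CPM and 5 CPM in other spots (log2 difference 1.55 ± 0.17, edgeR adjusted p = 3.98e-11, limma section-level adjusted p = 0.00182). Mmp2, gelatinase A, had 5.21 CPM and 11.9 CPM in foci, against 3.02 CPM and 5.12 CPM in other spots. Mmp9, Mmp8 and Mmp13 were too low to test.

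Of 14 tested genes of stellate cells and fibroblasts, the cells that lay down matrix, 10 were higher in foci and none lower, with a median log2 difference of 0.41. That count fell to 2 by limma on section means and to 3 without the spots holding bile duct UMIs. Vim, vimentin, had 32.9 CPM and 60.3 CPM in foci, against 21.5 CPM and 38.5 CPM in other spots. Pdgfrb, the receptor of platelet-derived growth factor on stellate cells, had 9.36 CPM and 11.4 CPM in foci, against 5.38 CPM and 7.77 CPM in other spots. Lrat, which stores vitamin A in stellate cells, had 16.8 CPM and 24.5 CPM in foci, against 15.3 CPM and 17.2 CPM in other spots. The summed level of the list was 591 CPM and 718 CPM in foci, against 535 CPM and 593 CPM in other spots. It moved with the matrix genes, and its part in their difference was not tested.

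Few markers of further cell types passed. Of 9 genes of bile duct cells 4 were tested and none passed in edgeR (1 at an unadjusted p under 0.05) or limma (0), and the sum over the list was 19.3 CPM and 48.9 CPM in foci, against 21.7 CPM and 36.3 CPM in other spots. Of 14 tested endothelial genes none was higher and Kdr and Dnase1l3 were lower under edgeR, and limma on section means called 0 (1 at an unadjusted p under 0.05). Of 18 genes of T and NK cells only 3 passed the filter on low counts. Of these Ccl5 was higher under edgeR, with 29.8 CPM and 23.0 CPM in foci and 17.3 CPM and 19.7 CPM in other spots. Limma on section means called 0 of the 3 (1 at an unadjusted p under 0.05). Cd3e was seen in 0.847% of foci and 0.672% of other spots of MASH-1 after thinning, and in 0.759% and 0.351% in MASH-2. None of the 5 tested genes of B and plasma cells passed edgeR's test (2 at an unadjusted p under 0.05) and 3 passed limma on section means, and their median log2 difference was 0.98. Igha, the heavy chain of IgA, had 32.7 CPM and 69.3 CPM in foci, against 14.4 CPM and 24.3 CPM in other spots (edgeR adjusted p = 0.0847, limma section-level adjusted p = 0.0084). The neutrophil genes S100a8 and S100a9 were at 2.35 to 12.9 CPM in foci and 3.30 to 5.77 CPM in other spots and did not pass.

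**Figure D4:**
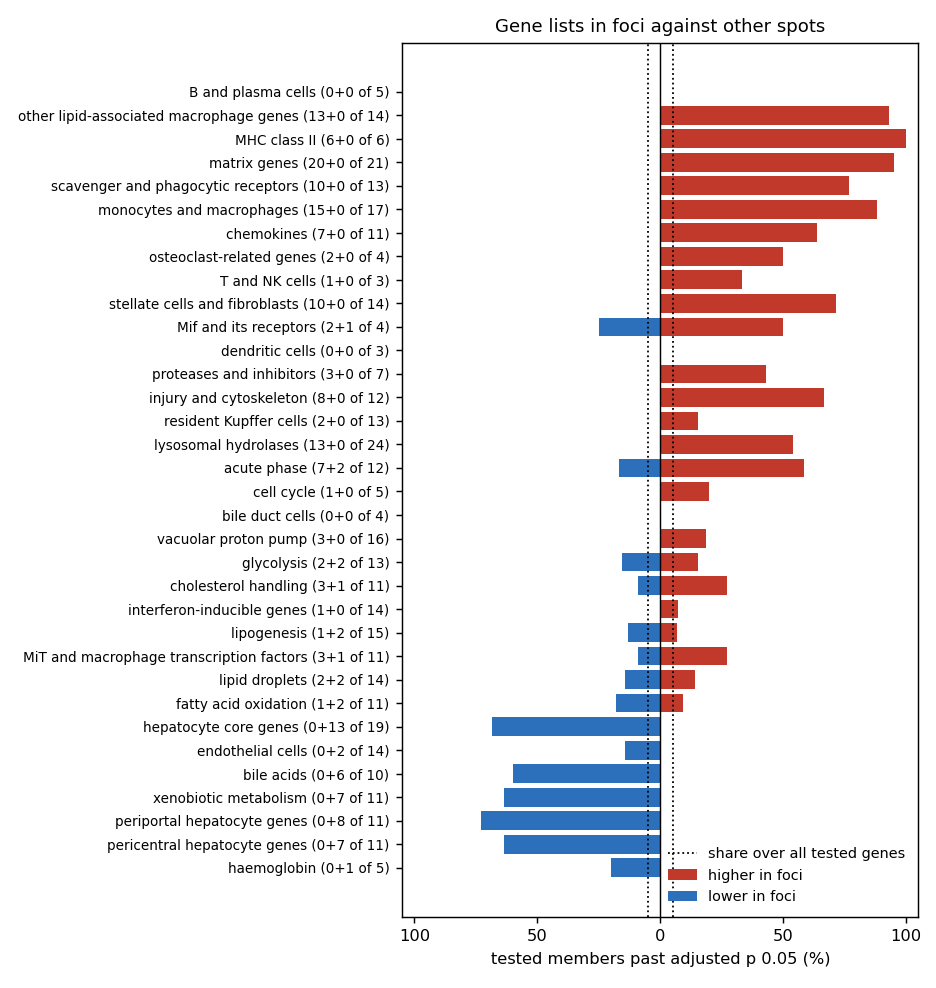
Share of the tested members of each gene list that passed an adjusted p of 0.05 in the edgeR fit, higher in foci to the right and lower to the left, in percent, with counts (higher + lower of tested) beside the names; dotted lines mark the shares over all tested genes, 5.34% higher and 4.93% lower. Lists run by median log2 difference, with macrophage, MHC class II and matrix lists in the upper part and hepatocyte lists in the lower part.

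Chemokines formed a mixed group in which 7 of 11 tested genes were higher and none lower, and limma on section means called 4. Ccl6, a chemokine of mouse macrophages, had 92.0 CPM and 64.2 CPM in foci, against 36.4 CPM and 38.1 CPM in other spots (log2 difference 1.10 ± 0.16, edgeR adjusted p = 0.00936, limma section-level adjusted p = 0.000821). Cxcl16, which exists as a scavenger receptor and as a chemokine, had 33.7 CPM and 46.1 CPM in foci, against 21.4 CPM and 26.1 CPM in other spots. Cxcl14 had 6.70 CPM and 7.48 CPM in foci, against 2.66 CPM and 2.44 CPM in other spots. Ccl2, the ligand of CCR2, was near the low end, with 2.81 CPM and 6.70 CPM in foci and 1.24 CPM and 4.01 CPM in other spots, and was not called by limma (adjusted p = 0.21).

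Acute phase genes differed within the group. Of 12 tested, 7 were higher and 2 were lower. By limma on section means 5 were higher and 0 lower, and with library totals as the scale 10 were higher and 1 lower. Lcn2, lipocalin 2, an iron-scavenging protein of stressed hepatocytes and myeloid cells, had 73.5 CPM and 163 CPM in foci, against 30.1 CPM and 76.2 CPM in other spots (log2 difference 1.17 ± 0.06, edgeR adjusted p = 1.4e-24, limma section-level adjusted p = 1.44e-05). The serum amyloid genes Saa1, Saa2 and Saa3 were higher by 0.86, 0.98 and 1.08. Saa3, the form that macrophages also make, had 51.8 CPM and 57.4 CPM in foci, against 21.8 CPM and 28.8 CPM in other spots. Orm2 was higher by 0.73 ± 0.05, while its near copy Orm1 differed by 0.03 ± 0.03 and Orm3 was lower by 0.28, and reads of such copies can be split uncertainly between them.

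Of 12 tested genes of injury and the cytoskeleton, 8 were higher and none lower, and limma on section means called 3. Tmsb4x, an actin-binding peptide abundant in leukocytes, had 925 CPM and 877 CPM in foci, against 493 CPM and 572 CPM in other spots. The hepatocyte keratins Krt8 and Krt18 were higher by 0.19 and 0.23, differences that limma on section means did not call. Gdf15, a stress hormone, had 49.9 CPM and 55.7 CPM in foci and 57.1 CPM and 50.9 CPM in other spots, and did not pass.

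Hepatocyte genes were lower in foci by small amounts. Of 19 core hepatocyte genes 13 were lower and none higher, with a median log2 difference of -0.09. Alb, albumin, had 50921 CPM and 49140 CPM in foci, against 53449 CPM and 54767 CPM in other spots. Limma on section means called 0 of the 19 (10 at an unadjusted p under 0.05), DESeq2 called 8 and edgeR scaled by library totals called 4. Since CPM are shares of a total, more RNA of 1 kind lowers the share of others, and a loss of hepatocyte RNA cannot be told apart from a gain of other RNA.

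Genes of both ends of the lobule took part, although each comparison was made within zones. Of 11 tested periportal genes 8 were lower and of 11 tested pericentral genes 7 were lower, with median log2 differences of -0.16 and -0.40. Limma on section means called 0 of the periportal genes (8 at an unadjusted p under 0.05) and 4 of the pericentral ones. Cyp1a2, a pericentral cytochrome P450 that clears drugs, had 161 CPM and 74.6 CPM in foci, against 194 CPM and 107 CPM in other spots (log2 difference -0.38 ± 0.06, edgeR adjusted p = 1.26e-06, limma section-level adjusted p = 0.014). Glul, glutamine synthetase of the innermost pericentral hepatocytes, had 282 CPM and 256 CPM in foci and 339 CPM and 399 CPM in other spots, and passed limma (adjusted p = 0.0323) but not edgeR (adjusted p = 0.199). The median zone ratio of foci was up to 0.36 more periportal on the log2 scale than that of other spots of the same zone. With 5 zone classes in place of 3, edgeR called 7 of the 11 pericentral genes lower and Cyp1a2 differed by -0.33, while with other spots matched to foci on total UMIs it called 2 of the 11.

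The lowest genes by rule were mostly hepatocyte enzymes and transporters. Hsd3b5, a steroid-metabolising enzyme of the mouse liver, had 32.7 CPM and 2.52 CPM in foci, against 42.4 CPM and 6.79 CPM in other spots (log2 difference -0.59 ± 0.13). It differed far more between the sections than between the classes. Cyp7b1, an oxysterol hydroxylase of bile acid synthesis, had 92.6 CPM and 62.6 CPM in foci, against 116 CPM and 89.98 CPM in other spots (log2 difference -0.43 ± 0.06, limma section-level adjusted p = 0.00697). Sult2a8, a sulfotransferase, had 427 CPM and 238 CPM in foci, against 506 CPM and 357 CPM in other spots. Slco1a1, an organic anion uptake carrier, had 205 CPM and 58.0 CPM in foci, against 238 CPM and 88.3 CPM in other spots. Elovl3, Cyp2c54 and Lhpp differed by -0.43, -0.41 and -0.41, and each lost its call on thinned spots. Lhpp also lost it with others matched on total UMIs (edgeR adjusted p = 0.0739). Elovl3 was not called by limma on section means (adjusted p = 0.0777). Malat1, a nuclear long RNA, was lower by 0.51 with an edgeR adjusted p of 0.0473. It lost its call with library totals, with others matched on total UMIs or with foci from a sum of at least 2. The call was also lost with foci holding UMIs of at least 2 of the 3 genes, with spots of at least 10000 UMIs and without the block.

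Of 10 tested bile acid genes 6 were lower and none higher, and of 11 tested genes of xenobiotic metabolism 7 were lower. Limma on section means called 1 of the 10 and 2 of the 11 lower. Slc10a1, the bile acid importer NTCP, had 565 CPM and 477 CPM in foci, against 628 CPM and 596 CPM in other spots (log2 difference -0.25 ± 0.03, limma section-level adjusted p = 0.0324). Cyp7a1, which sets the pace of bile acid synthesis, had 114 CPM and 68.0 CPM in foci and 122 CPM and 95.9 CPM in other spots, and was not called by limma (adjusted p = 0.107).

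Few fat-making genes of hepatocytes passed. Of 15 tested lipogenic genes Scd2 was higher, Mlxipl and Lpin1 were lower and 12 did not pass, and limma on section means called 1. Thrsp, a lipogenic regulator of hepatocytes, had 367 CPM and 516 CPM in foci, against 374 CPM and 503 CPM in other spots, and its log2 difference was -0.02 ± 0.04 (edgeR adjusted p = 0.91). Scd1, the desaturase of hepatocytes, had 9566 CPM and 6351 CPM in foci and 10104 CPM and 6563 CPM in other spots and did not pass. Scd2, its counterpart in many other cells, had 16.9 CPM and 19.3 CPM in foci, against 8.85 CPM and 12.9 CPM in other spots (log2 difference 0.72 ± 0.12). Of 14 interferon-inducible genes, Ifi27l2a alone was higher and 13 did not pass.

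Levels were also set against the size of the defining sum, in 4 classes of spots. These CPM are scaled by library totals alone, without TMM. Spots with a sum of 0 therefore have slightly different values here than above. In MASH-1, Lgals3 was at 20.8 CPM at a sum of 0, 25.1 CPM at 1 to 2, 53.1 CPM at 3 to 5 and 163 CPM at 6 or more, and MASH-2 had 45.9, 53.6, 70.8 and 189 CPM. Cd74 was 205, 240, 313 and 575 CPM in MASH-1 and 306, 355, 444 and 771 CPM in MASH-2. For both genes the step into the highest class was the largest. The collagen Col1a1 was 9.06, 10.9, 11.7 and 39.2 CPM in MASH-1, so that only the highest class stood apart there, and 20.9, 26.0, 38.7 and 83.1 CPM in MASH-2. Cyp1a2 ran the other way, at 185, 172, 159 and 141 CPM in MASH-1 and 109, 102, 88.1 and 60.5 CPM in MASH-2. Mif stayed between 244 and 290 CPM in all classes of both sections. The highest class held 81 spots in MASH-1 and 215 in MASH-2. Each zone weighs equally in these means, and few spots outside the periportal zone of MASH-1 had high sums. A sum of at least 5 was reached in MASH-1 by 6 pericentral, 16 middle and 79 periportal spots. The highest class starts at 6 and so held fewer spots than that in each zone. The highest-class values of MASH-1 thus rest largely on few spots.

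**Figure D5:**
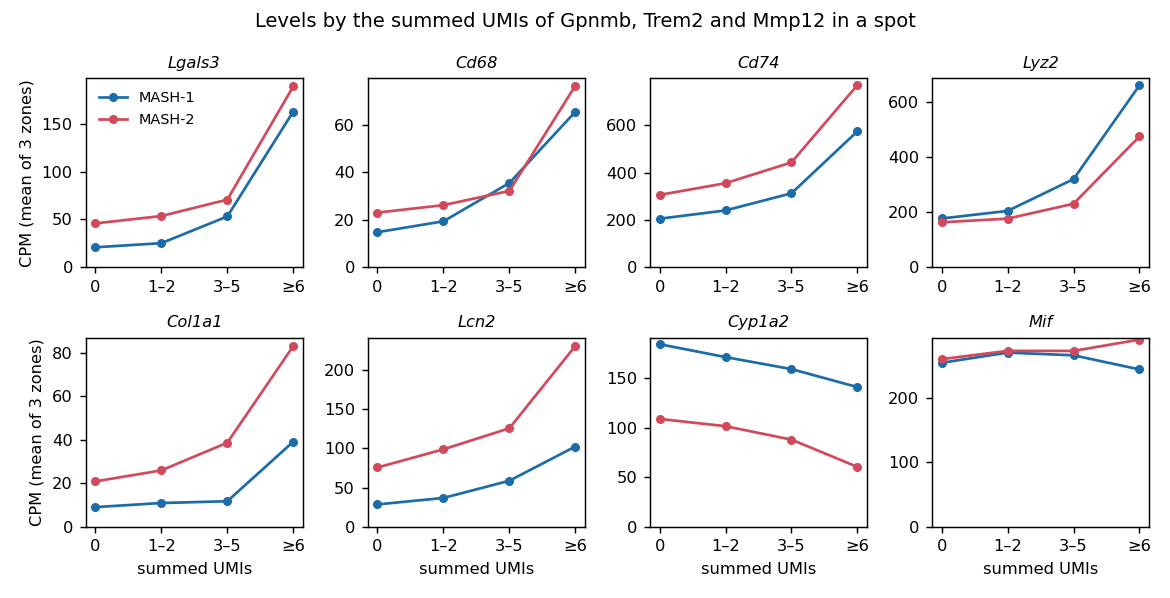
Levels in CPM, as the mean of 3 zones, of 8 genes in spots grouped by the summed UMIs of Gpnmb, Trem2 and Mmp12 (0, 1 to 2, 3 to 5, 6 or more), with 1 line per section. CPM here are scaled by library totals alone. Lgals3 reaches 163 CPM in MASH-1 and 189 CPM in MASH-2 in the highest class, Cyp1a2 declines to 141 CPM and 60.5 CPM, and Mif stays between 244 CPM and 290 CPM.

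Fitted within 1 zone at a time, the same contrast called 600 of 11494 genes in the periportal zone (5.22%), 326 of 10107 in the middle zone (3.23%) and 125 of 9944 in the pericentral zone (1.26%). These counts followed the number of foci in each zone and do not rank the zones. Each fit had 2 sections with the section as a block, and with the block left out none was called in any zone (365, 339 and 204 genes at an unadjusted p under 0.05). Lgals3 differed by 1.39, 1.73 and 1.48 on the log2 scale in the pericentral, middle and periportal zones. Cd68 differed by 1.03, 1.31 and 1.38, Cd74 by 0.63, 0.92 and 0.95, and Col1a1 by 1.26, 1.26 and 1.03.

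A test of whether the contrast differed between the periportal and the pericentral zone called 0 of 10008 genes with edgeR (0.0%; 487 at an unadjusted p under 0.05) and 0 with DESeq2 (28 at an unadjusted p under 0.05). For Cd74 the periportal minus pericentral difference was 0.30 ± 0.09 (SE) and for Lyz2 0.32 ± 0.10, with edgeR adjusted p-values of 0.926 and 0.947. These tests do not show that foci are alike in all zones, since the pericentral zone of MASH-1 held only 30 foci.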

How the data were processed

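Fresh-frozen mouse liver sections were profiled by 10x Visium, 2 from MASH and 2 from MAFL livers. The deposited matrices hold counts, whole-number UMIs per gene and spot made by the authors with Space Ranger 1.2.2 on mm10, per the file headers and the submitters' processing notes. Of 31253 features, 91 share a symbol with another and were kept apart by identifier. Spot positions were not used here. The 2 MASH sections share 1594 spot barcodes, which mark slide positions and not cells.

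The members and the 35 gene lists were chosen with earlier results of these data known. Spots under 5000 UMIs were left out, 46 in MASH-1 and 16 in MASH-2. Gpnmb, Trem2, Mmp12, Cyp2f2 and Cyp2e1 were removed, and counts were summed per class, zone and section. The 12 sums held 837396 to 11718824 UMIs.

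The main test was edgeR 4.0.16's quasi-likelihood test (robust, TMM factors, filterByExpr, the 6 section-zones as blocks, Benjamini-Hochberg adjusted p under 0.05) in R 4.3.3. Alternatives were limma 3.58.1 on log2 CPM (prior count 2) averaged per section, with section as block, and DESeq2 1.42.0. Pairing of classes comes from the tissue: foci and other spots of 1 block lie in the same section. The procedure was tested on simulated data. Python 3.11.15 did the rest.

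By rule, the text names the genes with the 15 highest and 10 lowest log2 differences among calls that averaged 20 CPM or more and kept 1 sign in all 6 section-zones, without predicted genes and a few families; up to 4 members of each list by p; and Cd74, Mif, Cd44, Cxcr4, Thrsp and Spp1. Further list members are given as examples, chosen after their values were seen.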

Additional observations from a re-analysis of the deposited data

Results flagged for a closer look

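The defining genes also had UMIs in the MAFL sections, which the comparison of foci with other spots did not use. Over spots with at least 5000 UMIs, MAFL-1 held 7 UMIs of Gpnmb, 57 of Trem2 and 22 of Mmp12. MAFL-2 held 14 UMIs of Gpnmb, 94 of Trem2 and 26 of Mmp12. Each of these 6 counts lies above the 3 UMIs that a count of 0 allows. In the MAFL sections Trem2 had the most UMIs of the 3 genes, whereas in the MASH sections Mmp12 had. These UMIs were scattered: 75 of 2001 spots in MAFL-1 and 121 of 1859 spots in MAFL-2 had a sum of 1, and the highest sum of any spot was 3 in MAFL-1 and 4 in MAFL-2.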

How the results depend on the processing

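Against 1027 called genes, DESeq2 called 517, limma on section means 243, edgeR on spots thinned to 5000 UMIs, where a sum of at least 2 made a focus, 283 and edgeR without spots holding bile duct UMIs 638. Without the replicate block 143 were called (141 higher, 2 lower), and of the 30 genes followed in each setting 15 lost their call, namely all 10 lower ones and Lcn2, Col1a1, Ly6d, Cd63 and Col3a1. The thinned setting, which changed depth and threshold together, ended 10 calls. Among them Cd44 differed by 0.81 (adjusted p = 0.142), against 0.70 unthinned, and Saa3 by 0.57 (adjusted p = 0.108), against 1.08. Ccl6 lost its call with zones summed at 1.08 (adjusted p = 0.459), against 1.10. The cause was not tested. In the periportal, middle and pericentral zones, with 600, 326 and 125 called, DESeq2 called 85, 35 and 22, and leaving out the block, a setting added after seeing the data, called 0 in each. In the middle zone 95 were called with other spots matched on total UMIs. The test between zones called 0, and 1 with matched depth (lower) or with foci from a sum of at least 2 (higher). The periportal share of foci, 58.8%, was 49.7% without MASH-1 and 67.8% without MASH-2. Of the 30 genes all but Mif and Thrsp kept their direction in every setting run. Mif, not called in any, lay between -0.05 and 0.08, and Thrsp between -0.19 and 0.04, with 1 call, lower, with zones summed (adjusted p = 0.0055). Depth limits low genes such as Cxcr4.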

Other observations

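Some gene families outside the lists, and the haemoglobin list, were also compared between foci and other spots. Of 13 mitochondrially encoded genes tested, 12 were lower in foci under edgeR, none was higher, and the median log2 difference was -0.33. Limma on section means and edgeR scaled by library totals each called 12 lower as well. mt-Co3, a subunit of cytochrome oxidase, differed by -0.26 and mt-Nd2, a subunit of complex I, by -0.33. Of 93 ribosomal protein genes, 40 were higher under edgeR with a median of 0.09, while limma called 0 and library totals 76, so this count rests on the scaling and on the unit of replication. The major urinary proteins, pheromone carriers that mouse hepatocytes secrete, were lower in 9 of 14 genes (median -0.35), and near-identical copies make the single members uncertain. Haemoglobin, a mark of blood in the tissue, made up 0.280% of the UMIs of foci and 0.445% of those of other spots in MASH-1, and 0.0850% and 0.198% in MASH-2. These shares pool the zones. In the pericentral zone of MASH-1 they were 0.375% and 0.374%, while in every other zone of both sections foci had the lower share. Of the 5 tested genes of the haemoglobin list, edgeR called Alas2 alone lower, and limma on section means called 2. With other spots matched on total UMIs edgeR called 1, and the median log2 difference was -0.45, against -0.84.

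Genes outside the lists named by their size alone included Ly6d, a small surface protein of lymphoid and epithelial cells, with 22.4 CPM and 78.2 CPM in foci, against 12.6 CPM and 32.6 CPM in other spots (log2 difference 1.10 ± 0.08, edgeR adjusted p = 2.82e-17, limma section-level adjusted p = 0.000573). Gngt2, a G protein subunit, had 69.9 CPM and 56.1 CPM in foci, against 34.7 CPM and 32.6 CPM in other spots. Cotl1, an actin-binding protein, had 24.4 CPM and 43.2 CPM in foci, against 15.3 CPM and 21.8 CPM in other spots. Hamp2, a copy of the hepcidin gene, had 23.2 CPM and 31.5 CPM in foci, against 30.3 CPM and 45.0 CPM in other spots.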
